A study of Rattus norvegicus with 8 samples.

Results

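The 4 libraries described here are the air controls of a study of vaporized cannabis, chosen by their titles (Control1 to Control4) out of 8 libraries in all. The counts, shares and spreads below are of these 4 alone. The list of sites draws on all 8 libraries, so the numbers of sites depend on the cannabis libraries too. A check of the lowest sum of reads per site also used all 8. The donors were adult male Long-Evans rats with free access to food. Each control was placed for 10 min in the exposure chamber with an unfilled vaporizer, and the hypothalamus was taken 1 hr later, food having been removed for that hour. RNA was read by whole transcriptome termini site sequencing, which captures the polyadenylated 3′ end of each transcript and counts reads at each alternative polyadenylation (APA) site. The labels list the 4 as separate samples of a single group, so the spread given here is the spread among these samples, which may be technical in part, and no comparison of groups was made.

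Most messenger RNAs are cleaved downstream of a polyadenylation signal and given a poly(A) tail, and many genes carry several such signals. The choice among them sets the length of the 3′ untranslated region or, when the site lies in an intron, truncates the transcript. Brain tissue is known for long 3′ untranslated regions and for frequent use of several sites per gene, and the hypothalamus in particular is built from neurons that release peptides such as vasopressin, oxytocin and melanin-concentrating hormone.

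Sequencing depth differed among the controls. Control 1 held 3271380 reads, Control 2 held 1941129, Control 3 held 3399252 and Control 4 held 1159811. Values are normalized read counts, that is, the read number at a site scaled to its library by a size factor, so that 1 read is worth 0.731, 1.20, 0.671 and 1.99 in Controls 1 to 4. Control 4 was the shallowest library and also stood apart in its values. Over 3597 gene symbols with a mean of at least 100, Pearson's r of log2 counts across genes lay between 0.92 and 0.94 among Controls 1 to 3 and between 0.82 and 0.85 between Control 4 and any of them. Genes are not independent replicates, so these coefficients only describe the libraries. Control 4 was the lowest library for 39.1% of these symbols and the highest for 33.3%.

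The table of the study lists 98356 APA sites, of which 98323 had at least 1 read in the controls and 63130 (64.2%) had a read in each of the 4. Control 1 had reads at 95094 sites, Control 2 at 88198, Control 3 at 94475 and Control 4 at 72655. Had each library been read at the depth of Control 4, 80814, 78736 and 79337 sites would have been expected in Controls 1 to 3, so that Control 4 still had the fewest at equal depth. The median site was rare, with a mean count of 3.95, and the 22419 sites (22.8%) with a mean of at least 10 carried 87.9% of all counts. A gene symbol was assigned to 64313 sites, which held 85.0% of the counts. The other 34043 sites carried no symbol.

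Counts were concentrated in few genes. After summing sites, 18001 symbols had reads in the controls, with a median of 23.2 normalized counts. The 571 highest symbols held 50% of the symbol counts, 5659 symbols held 90%, and the 10 highest alone held 15.8%. The number of symbols that held 50% was 562, 552, 577 and 517 in Controls 1 to 4. At the other end, 5924 symbols (32.9%) had a mean below 10, while the 3597 symbols (19.98%) at or above 100 accounted for 82.2% of the counts.

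**Figure D1:**
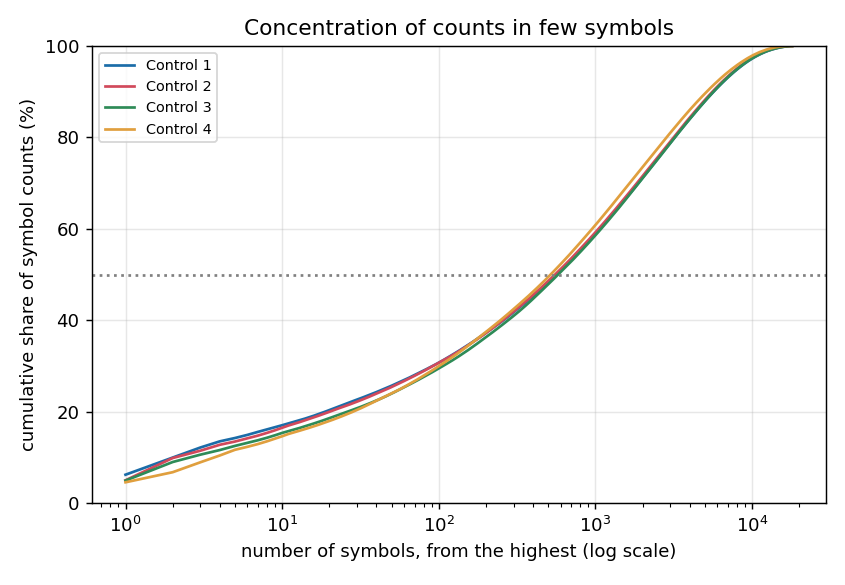
Cumulative share of symbol counts (percent) against the number of symbols taken from the highest down (log scale), 1 line per air control library; the dotted line marks 50%. The lines cross it between 517 symbols in Control 4 and 577 in Control 3.

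Transcripts of the mitochondrial genome headed the ranking. Mitochondrial RNAs are polyadenylated and are cut from long polycistronic precursors. Rows of mitochondrial symbols together carried 238996, 231057, 215420 and 155791 counts, or 9.99%, 9.94%, 9.44% and 6.76% of all counts in Controls 1 to 4, with Control 4 the lowest. The highest site, named mt-Rnr1 after the 12S ribosomal RNA gene, had 126291, 99521, 79920 and 88489 counts. It is a wide cluster at chrMT:31-5318 on the plus strand (all positions are in the rat build Rnor_6.0), which reaches well beyond that gene, so its count cannot be assigned to a single mitochondrial RNA.

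The second highest site carried the name of a transfer RNA, Trnd, but again covered a long stretch, chrMT:5788-9612 on the plus strand, in which several protein-coding genes lie. It had 76072, 96428, 97683 and 42635 counts, Control 4 being the lowest. The symbol CYTB, named after the cytochrome b gene of respiratory complex III, held 13240, 13812, 17857 and 7165 counts over its 3 sites. Its main site, with 99.8% of them, is also a wide cluster, of 4403 bases at chrMT:12075-16477 on the plus strand. This count too cannot be assigned to a single mitochondrial RNA. The light-strand cluster Trnp at chrMT:14771-16185 differed less among the libraries, with 13813, 11886, 10590 and 11272.

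Glial genes led the nuclear genome. Mbp, which encodes myelin basic protein, had 44079, 31592, 31616 and 41769 counts (mean 37264 ± 6604, SD, n = 4), and 1 distal site at chr18:79437274-79437920 on the plus strand held nearly all of them (99.9% in Control 4). Controls 1 and 4 were high, and Controls 2 and 3 were level with each other. Apoe, the apolipoprotein made mainly by astrocytes, followed with 27468, 25873, 20024 and 24026 counts and its main site at chr1:80612861-80612922 on the minus strand. Cst3, encoding the protease inhibitor cystatin C, ranged from 5352 in Control 4 to 13207 in Control 3. Scd2, a stearoyl-CoA desaturase of lipid synthesis that is abundant in myelinating cells, had between 6935 and 7299 counts in Controls 1 to 3 and 4995 in Control 4. Sparcl1, an extracellular matrix protein of astrocytes, was likewise lowest in Control 4, with 4020 counts against 5302 to 7304 in the others. Its relative Sparc held 5503 ± 522, and Itih3, a heavy chain of the inter-alpha-trypsin inhibitor, 4458 ± 973 (SD, n = 4).

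Among neuronal genes, Nnat, an imprinted gene encoding the membrane proteolipid neuronatin, was even among the libraries, with 10945, 11259, 10171 and 11586 counts (CV, the SD divided by the mean, 5.51%). Its main site at chr3:154046252-154046735 on the plus strand held 97.9% of them. Uchl1, a neuronal ubiquitin hydrolase, was less even, with 8625, 11794, 6759 and 12615, and Stmn3, a microtubule-destabilizing stathmin, ranged from 5715 in Control 1 to 9874 in Control 4. Tmem130, a transmembrane protein, stayed between 5701 and 6309 (CV 4.22%). Map1b, a microtubule-associated protein of growing axons, had 5847 ± 427, and Resp18, an endocrine protein of secretory granules, 5546 ± 375 (SD, n = 4). Ywhaz, a 14-3-3 protein, stood between 3296 and 3907 in Controls 1 to 3 and at 6907 in Control 4. Gapdh, the glycolytic enzyme often used as a reference, had 6690 counts in Control 1 and between 4143 and 4176 in the other controls.

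**Figure D2:**
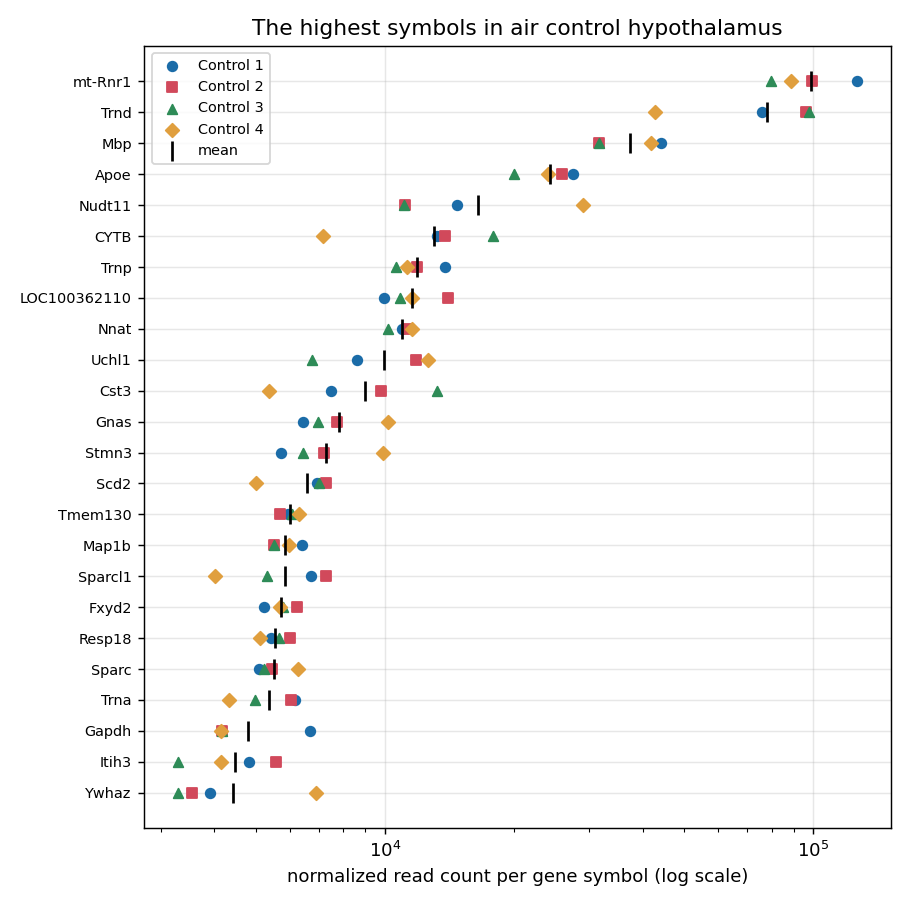
Normalized read count per gene symbol (log scale) of the highest symbols in each air control library; the bar marks the mean of 4 libraries and 1 unnamed locus among the first 25 is left out. Nnat and Tmem130 lie in tight groups, whereas Nudt11 (11058 to 28993) and CYTB (7165 to 17857) spread out.

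Of the 25 highest symbols, 19 were among the first 25 of every library, and their CVs ran from 4.22% (Tmem130) to 51.6% (Nudt11) with a median of 20.4%. Some of these names rest on sites outside the exons of the named gene. Nudt11, a diphosphoinositol polyphosphate phosphohydrolase, owed its place to an intronic site only 17 bases wide at chrX:17176135-17176151 on the minus strand, with 14679, 11039, 10884 and 28949 counts. Fxyd2, a regulator of the sodium pump, owed its place to an intronic site of 15 bases at chr8:49715523-49715537 on the minus strand, with 5202, 6206, 5775 and 5658. The locus LOC100362110 had an intronic site at chr13:41826430-41826933 with 9926, 14017, 10836 and 11572 counts. How reads that match several places in the genome were assigned is not given in the sources used here, and the part of related gene copies in these sites was not tested.

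Among the 15 highest sites, 4 lay in the mitochondrial genome, 2 were intronic and 2 had no gene. The higher of the sites without a gene, at chr2:217328933-217329471 on the plus strand, had 13713, 11039, 8528 and 19184 counts, and the other, at chr1:221157961-221158305 on the minus strand, had 4444, 6227, 2934 and 12597. In both, Control 4 was the highest and Control 3 the lowest.

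The location of a site was taken from the Cuffcompare class listed for it, which was available for the 500 highest sites, together 40.01% of all counts and each with a mean of at least 507. Of these, 311 (62.2%) were distal, that is, at annotated transcript ends, 80 were exonic, and 18 were extended distal, lying shortly downstream of the annotated end. Another 32 (6.40%) were intronic, 5 extended from an exon into an intron, 6 were antisense to an exon, and 42 (8.40%) had no gene. The last 6 were whole mitochondrial features, which held 22.3% of the counts of the 500. Distal sites held 50.6% of those counts, exonic sites 9.53%, intronic sites 7.25% and sites without a gene 6.95%. The groups differed in evenness among the 4 libraries, the median CV being 22.8% for distal sites, 21.1% for exonic, 27.2% for intronic and 40.3% for sites without a gene. Exonic and intronic sites were also narrow, with median widths of 47.5 and 43.5 bases against 256 for distal sites.

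Most symbols had few sites and a small class had very many. Of the 18001 symbols, 7030 (39.1%) had 1 site, the median was 2 and the mean 3.57, while 1110 symbols (6.17%) had 10 or more and 78 had 40 or more. The 1110 symbols owned 32.5% of the sites with a symbol and 15.3% of the symbol counts. The number of sites was greater in more abundant genes (Spearman's rho 0.61 across 18001 symbols, as a description; both measures depend on depth). Counting only sites with a mean of at least 10, 65.8% of 10521 symbols had a single site and no symbol had over 32.

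The 10 symbols with the most sites were neuronal genes, mostly of synaptic adhesion or axon guidance, whose primary transcripts are known to be very long. Cntnap2, a neurexin-related protein of the axonal membrane, had 139 sites. Nrxn3, a presynaptic neurexin, had 133, Lrp1b, a large lipoprotein receptor, 120, and Nrg3, a neuregulin ligand of ErbB4, 119. Lrrc4c (netrin-G ligand) and Pcdh9 (a protocadherin) had 116 each, and Dlg2 (the scaffold PSD-93) and Robo2 (a Slit receptor) 115 each. Il1rapl1, an interleukin-1 receptor accessory-like protein of the synapse, had 102. Only 13 to 27 of each gene's sites reached a mean of 10, so that most of the long tail was at a few reads per site.

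Totals of these genes were nonetheless very even. Pcdh9 summed to 920, 949, 947 and 981 counts, Robo2 to 750, 704, 720 and 713, and Il1rapl1 to 662, 692, 685 and 705. The highest library of each was 1.07 times the lowest, Control 4 included. Over the 78 genes with 40 or more sites the median CV was 10.6%, against 22.5% for the 570 genes with 2 sites, at median counts of 466 and 208.

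**Figure D3:**
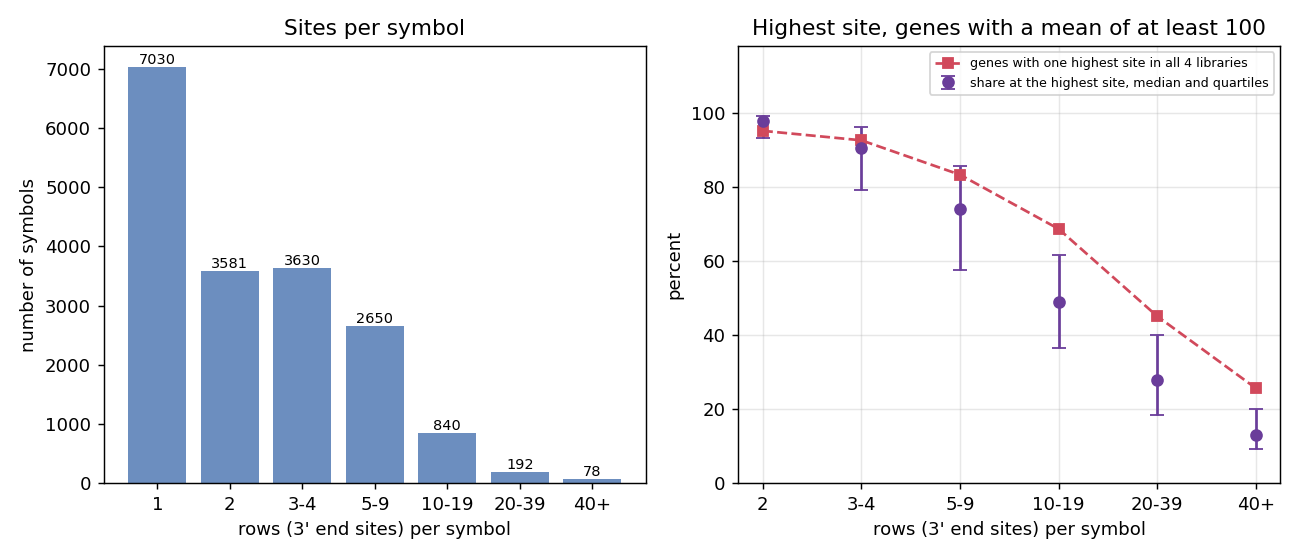
Left, number of symbols (bars from 0) by how many 3′ end sites they have; right, for genes with at least 2 sites and a mean of at least 100, the share of counts at the highest site (median and quartiles) and the percent of genes with the same highest site in all 4 libraries. Both curves fall as sites are added, to 13.0% and 25.6% at 40 or more sites.

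Usage within a gene was usually dominated by 1 site. Among 3007 genes with at least 2 sites and a mean of at least 100, the highest site held a median of 78.4% of the gene's counts (quartiles 52.7% and 94.5%). It held at least 90% in 1002 genes (33.3%) and less than 50% in 659 (21.9%). Within a gene, the share varied by a median SD of 5.08 percentage points among the libraries. The median share was 75.6%, 79.4%, 79.9% and 79.2% in Controls 1 to 4, Control 1 being the lowest.

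The share fell with the number of sites, from a median of 97.8% in genes with 2 sites through 73.9% with 5 to 9 and 49.0% with 10 to 19 down to 13.0% with 40 or more. The lowest values belonged to the long neuronal genes. The highest site of Nrg3 held 5.17% of its counts, that of Nlgn1 (a neuroligin of excitatory synapses) 5.61%, that of Lrrc4c 6.12% and that of Robo1 (a Slit receptor) 6.60%. Sgcz, a sarcoglycan, had 7.19%, and Cntnap2, Nrxn3, Cntnap5c, Cntn4 (a contactin) and Lrp1b lay between 7.27% and 7.44%. In Nrg3 the 3 highest sites were level with each other, at means of 58.0, 57.9 and 55.1.

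The same site was highest in all 4 libraries for 2452 of the 3007 genes (81.5%) and for 431 of 483 genes with a mean of at least 500. In the 555 genes where it changed, the average share of the highest site was already low, with a median of 35.6% against 85.4% in the others. In 168 of them only Control 4 had another highest site, against 56, 44 and 59 genes for Controls 1, 2 and 3 and 228 in which no 3 libraries shared a site. Without Control 4 the percentage of genes with the same highest site was 87.4%, against 82.7% to 83.6% without any other library. Whether the smaller number of reads in Control 4 accounts for this was not tested.

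Genes with a balanced pair of sites could be read site by site. Cartpt, the precursor of the anorexigenic peptide CART, used an exonic site at chr2:30125476-30125596 and a distal site at chr2:30125238-30125277, both on the minus strand. The exonic site had 514, 652, 604 and 588 counts and the distal site 507, 680, 454 and 385. The exonic share thus ran from 49.0% to 60.4%, with the sites level in Controls 1 and 2. Gnai2, an inhibitory G protein subunit, had 2 exonic sites on the minus strand, of which the site at chr8:116370723-116370760 held 52.9%, 59.9%, 56.8% and 47.8%.

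In several genes Controls 1 to 3 shared 1 highest site and Control 4 another. Rtn1, a neuronal reticulon, was one of them, its distal site (chr6:94951002-94951033, minus strand) holding 60.2%, 58.0%, 65.6% and 36.5%. Kcnj16, an inward rectifier potassium channel of glia, went the other way. Its exonic site had 405, 467, 388 and 121 counts and its distal site 347, 320, 316 and 332.

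Syn2, the vesicle protein synapsin II, moved between an intronic site (629, 753, 782 and 413 counts) and the distal site (344, 375, 328 and 683). Ece2, an endothelin-converting enzyme, moved between a site classed as intronic on the plus strand (717, 667, 946 and 475) and its distal site on the minus strand (322, 372, 363 and 890). A sum over a symbol can therefore join transcripts of opposite strands. Among the sites with a listed position, 15 intronic sites belonged to genes that also had an exon-linked site on a known strand, and 6 of the 15 lay on the opposite strand.

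Control 1 stood apart in Copg2 and Pja2. Copg2, encoding a coatomer subunit and located in an imprinted region, had 8196, 2812, 2243 and 4272 counts over 43 sites, and a single intronic site at chr4:58078907-58079355 held 4847 of the 8196 in Control 1 against 952, 436 and 898 in the others. Pja2, a ubiquitin ligase, had 586 counts at an exonic site in Control 1 against 242, 52.4 and 25.8 in Controls 2 to 4. In 79 genes, 2 or more exon-linked sites on 1 strand had a listed position. The most distal of them held a median of 46.0%, 48.6%, 46.3% and 39.6% of their counts in Controls 1 to 4. Control 4 was the lowest in 37 of the 79 genes and the highest in 19. Controls 1 to 3 were the lowest in 19, 6 and 17 and the highest in 14, 23 and 23. Sites without a listed position did not enter these values.

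**Figure D4:**
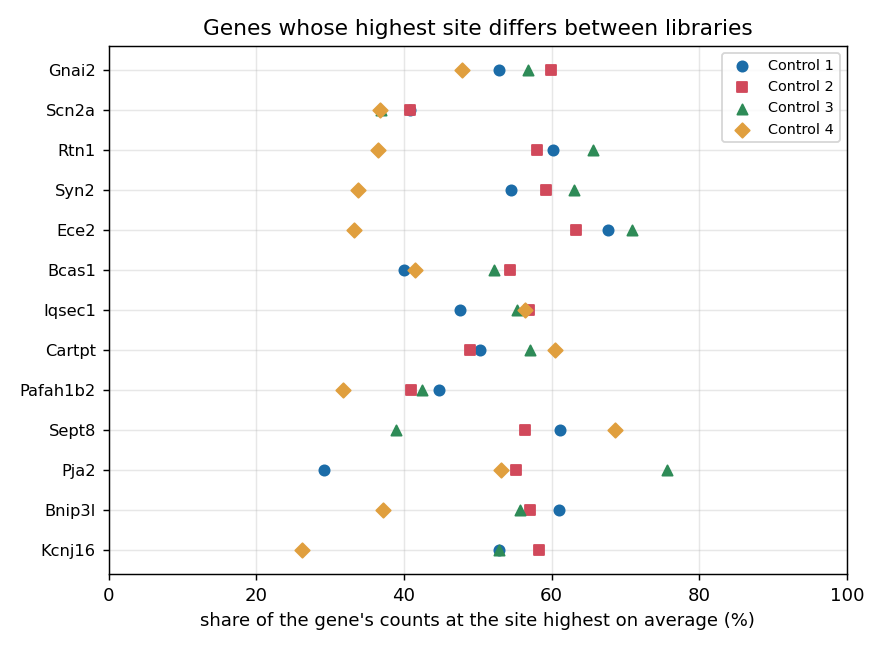
Share of a gene's counts (percent) at the site that is highest on average, per air control library, for 13 abundant genes under 40 sites whose highest site differs between libraries. Control 4 lies apart to the left for Rtn1, Syn2, Ece2, Bnip3l and Kcnj16, and Control 1 for Pja2.

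Genes long known for tandem 3′ ends were read as a list of 20, with summed counts of 18132, 17308, 17485 and 17338. Of the 17 with a mean of at least 100 and more than 1 site, 11 had the same highest site in every library. Over all 17 the highest site held a median of 62.9%. Mapt, which encodes tau, used 3 main sites on the plus strand of chromosome 10 in all libraries, the first (chr10:92382670-92383185) with 1393, 1630, 1694 and 2471 counts, the second (chr10:92384501-92384961) with 963, 813, 751 and 1227, and the most distal (chr10:92386497-92386814) with 264, 332, 314 and 129. Timp2, an inhibitor of metalloproteinases, kept 58.3% to 66.9% at a site classed as extended distal. App, the amyloid precursor protein, summed to 2405 ± 260 over 26 sites (SD, n = 4).

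The peptides of the hypothalamus were well represented. Of 26 peptide precursors with a value, 20 had a mean of at least 10 and 13 of at least 100, and the median member had 92.1 counts against 23.2 for all symbols. Their summed count was 8461, 6655, 6730 and 7018. Avp, the vasopressin precursor made by magnocellular and suprachiasmatic neurons, led with 3082, 1178, 1054 and 2494, so that Controls 1 and 4 were more than 2-fold above Controls 2 and 3. All Avp counts came from 1 distal site at chr3:123117467-123117504 on the minus strand. Oxt, the oxytocin precursor, had 889, 371, 702 and 421 counts at 1 distal site (chr3:123107465-123107803, plus strand), and its high libraries were Controls 1 and 3, not the same pair as for Avp.

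Cartpt followed Avp with 1021, 1332, 1058 and 973. Pmch, the precursor of melanin-concentrating hormone of the lateral hypothalamus, had 672, 679, 839 and 346, and Hcrt, the orexin precursor of the same area, 189, 225, 307 and 89.4. Control 4 was the lowest and Control 3 the highest for both of these lateral hypothalamic peptides. Trh, the thyrotropin-releasing hormone precursor, was even, at 592, 585, 443 and 620. Of the arcuate feeding peptides, Pomc had 49.0, 83.8, 48.3 and 101 counts and Agrp 31.4, 34.7, 26.2 and 53.6, each highest in Control 4. Crh, Ghrh, Grp, Gnrh1, Npvf and Nmu stayed below a mean of 10, and Npvf had no read in Control 4, where 3 reads would be worth 5.96.

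Peptide genes laid their counts out at few sites. The median peptide gene had 1 site, and among 6 with a mean of at least 100 and more than 1 site the median share of the highest was 99.1%. Over 30 long adhesion genes the median was 74 sites, and the 27 of them with a mean of at least 100 had a median share of 13.9%. Their summed counts were 17958, 16909, 16522 and 17884.

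Genes of the secretory granule were abundant, with a summed count of 12631, 11976, 13710 and 10690 over 10 members. Resp18 led, followed by Scg5 (the chaperone 7B2) at 1549 ± 337, the peptide-processing carboxypeptidase Cpe at 1399 ± 904 and the granins Chgb at 1319 ± 271 and Scg3 at 715 ± 87.4 (SD, n = 4). Cpe was uneven because Control 3 held 2702 counts against 653 to 1262 elsewhere. Transcription factors that pattern the hypothalamus were far lower, with 25 members summing to 687, 876, 798 and 759. Dlx1, a homeobox gene of GABAergic neurons, had a mean of 119, Fezf1 91.7, Six3 46.9 and Foxb1, a marker of the mammillary region, 45.9. Sim1, needed for the paraventricular nucleus, had 75.3, 74.2 and 56.4 counts in Controls 1 to 3 and 187 in Control 4.

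Markers of GABAergic neurons were above those of glutamatergic neurons. The vesicular GABA transporter Slc32a1 had 517, 535, 852 and 1096 counts, above the vesicular glutamate transporter Slc17a6 at 159, 146, 168 and 53.6 in every library. The gap was widest in Control 4, which was the highest for the former and the lowest for the latter. The GABA-synthesizing enzymes were lower than the transporter, Gad1 at 112 ± 17.7 and Gad2 at 45.3 ± 27.5 (SD, n = 4). As each transcript gives 1 end, these counts compare genes without correction for length, but in bulk tissue fewer cells of a type and less RNA per cell cannot be told apart.

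The order of the glial lists turned on 1 gene in each. Oligodendrocyte genes summed to 57417 ± 6462 over 13 members and to 20153 ± 2110 without Mbp, with Mobp at 2782 ± 781. Astrocyte genes summed to 46618 ± 3582 over 14 and to 22270 ± 834 without Apoe, with Mt3, S100b and Agt behind Apoe and Sparcl1. Agt, which encodes angiotensinogen, was one of the most even abundant genes at 2820, 2848, 3023 and 2776. Pan-neuronal genes summed to 27601 ± 3170 over 18 and to 17653 ± 667 without Uchl1. On average the neuronal list thus lay below both glial lists, in full and with the leading gene left out of each. In Control 4, however, the neuronal list without Uchl1 (18551) was above the oligodendrocyte list without Mbp (17083). The oligodendrocyte list was above the astrocyte list in full and below it without the leading genes. Microglial genes summed to 992 ± 94.4 over 11 (Aif1 at 309 ± 48.6), endothelial and mural genes to 327 ± 103 over 11, genes of oligodendrocyte precursors to 302 ± 16.6 over 5, and genes of ependyma and tanycytes to 379 ± 54.6 over 11 (SD, n = 4 throughout).

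Lists for neighbouring tissue were read beside these. A symbol near 0 does not by itself show that its cells were missing, because genes in wide use also had few reads. The neuronal enolase Eno2 had 10.2, 1.20 and 2.69 counts and no read in Control 4, the ubiquitin gene Ubb a mean of 3.48, and the ribosomal protein gene Rpl11 0.731, 2.39, 0 and 1.99. Choroid plexus genes were near the floor, with 65.5 to 98.2 counts in sum, most of them from the widely expressed prolactin receptor Prlr. Ttr, the defining transthyretin gene, had 4.39, 9.58 and 0.671 counts and no read in Control 4, and Folr1 and Kcne2 also had no read there. Pituitary genes were uneven, with 439, 824, 128 and 417 in sum over 5 members. Cga, the common glycoprotein hormone subunit of the pars tuberalis and anterior pituitary, had 346, 688, 101 and 381, and Tshb, the thyrotropin subunit, 70.2, 122, 11.4 and 19.9, while Fshb had at most 2.39 and Pou1f1 no read in Controls 2 and 4. The meningeal list rested on Ptgds (3121 to 4909), a prostaglandin D synthase that oligodendrocytes also make. The collagen Col1a1 had 28.2 to 46.1 counts.

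Midbrain dopamine genes gave a mixed reading. Slc6a3, the dopamine transporter, had 321, 237, 267 and 256 counts, all at 1 site, which the paper lists as intronic. En1, a midbrain homeobox gene, had 44.6, 17.96, 25.5 and 39.7, beside 305 ± 46.6 for Th, the tyrosine hydroxylase that hypothalamic neurons also express. The transcription factors Foxa1, Pitx3 and Lmx1b, by contrast, had means of 3.18, 2.59 and 2.06, Pitx3 with no read in Control 4 and Lmx1b with none in Controls 2 and 4.

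Several of the other tissue lists rested on genes that the hypothalamus also expresses. Genes of thalamus summed to 596 to 792 over 7 members, among them the glutamate transporter Slc17a6 given above, those of cortex and hippocampus to 604 to 792 over 8 (Cux2 holding 412 ± 86.2), and those of cerebellum to 242 to 677 over 5, the last with Control 4 lowest. Those of striatum summed to 854 ± 152 over 8 (SD, n = 4) and to 346 ± 47.6 without the enkephalin precursor Penk, a hypothalamic peptide too, and the dopamine receptor Drd1 had a mean of 2.96. Blood was represented by the alpha-globins Hba1 at 568 ± 64.3 and Hba2 at 539 ± 225 (SD, n = 4), near-identical copies whose reads may be exchanged. The beta-globin Hbb had 1.46, 1.20, 4.03 and 1.99 counts and the erythroid enzyme Alas2 a mean of 10.6. What these lists contribute to the spread of other genes was not tested.

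Broad functional groups were abundant. Cytosolic ribosomal protein genes summed to 31646, 34137, 34743 and 35048 over 79 members, of which 63 had a mean of at least 10, and the median CV of the members with a mean of at least 100 was 28.9%. Rpl35 and Rpl37a led them at 3645 ± 880 and 3569 ± 328 (SD, n = 4). Genes often used as references summed to 20888, 17699, 17686 and 21264 over 11 members, Controls 1 and 4 being high. Nuclear genes of oxidative phosphorylation summed to 46364, 47586, 51614 and 43842 over 96, imprinted genes to 25269, 26391, 26078 and 27690 over 16, and synaptic vesicle genes to 20228, 20207, 21948 and 20446 over 20. Genes of the cleavage and polyadenylation machinery itself were modest, with 2208, 1893, 1896 and 2234 over 20 members. Papola, the canonical poly(A) polymerase, had 355, 352, 373 and 550 counts, and Cpsf6, a subunit of cleavage factor I, 247, 292, 269 and 544, both highest in Control 4. Cpsf3, the cleavage endonuclease, stayed between 127 and 136.

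Of 10 immediate early genes listed, 5 had a value, and their median member had 17.0 counts against 23.2 for all symbols. The tissue was taken 1 hr after the air session, and no library without a session was available for comparison. Jun had 59.2, 47.9, 75.2 and 55.6 counts, Egr1 12.4, 15.6, 36.3 and 5.96, and Fos 21.2, 21.5, 15.4 and 9.93. Of the long noncoding RNAs with a value, Snhg11 had 1677, 1472, 1565 and 1303. Gas5 held 167 in Control 1 and 33.8 to 46.3 in the others.

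The spread among the 4 libraries exceeded counting error for nearly all abundant genes. Over the 3597 symbols with a mean of at least 100, the median CV was 21.1% (quartiles 14.1% and 31.4%), whereas the reads behind them would give a median of 7.45% from counting error alone. The observed CV was above the counting value in 3402 (94.6%). It was similar at all levels of abundance. The median CV was 22.2% at a mean of 100 to 200 and 22.0% at 1000 or more, where counting error falls from 9.12% to 2.73%. The highest library was over 2-fold above the lowest for 930 symbols (25.9%). Without Control 4 the median CV was 14.8%, whereas leaving out any other library gave 20.7% to 22.0%.

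**Figure D5:**
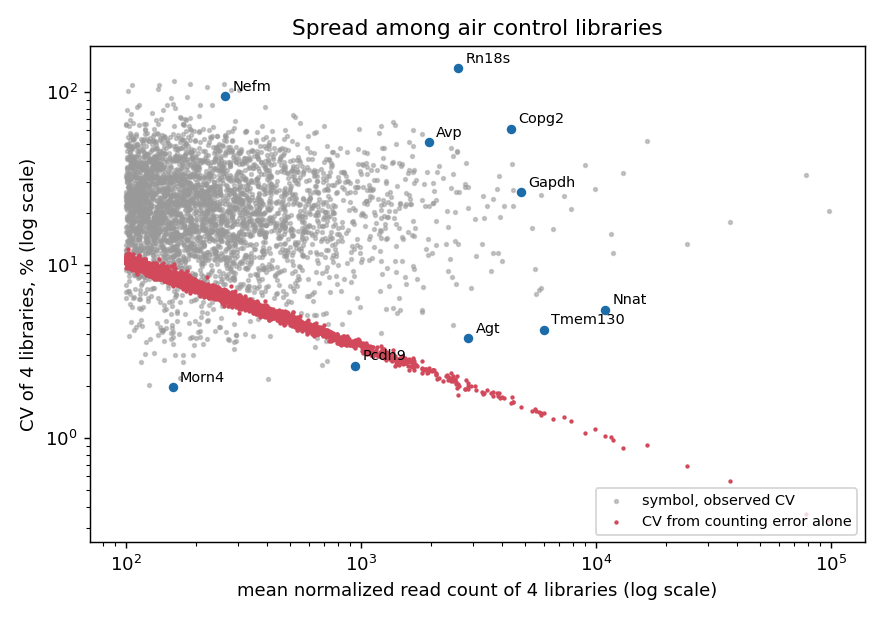
CV of the 4 air control libraries (percent, log scale) against mean normalized count (log scale) for 3597 symbols, with the CV from counting error alone in red and named genes in blue. Most symbols lie above the red band at all levels; Rn18s is at 136% and Morn4 at 1.97%.

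The most variable symbol was Rn18s, the 18S ribosomal RNA, which lacks a regular poly(A) tail and had 1287, 284, 7884 and 955 counts. Next came genes raised in a single library. Dhx57 (an RNA helicase), Cap1 (an actin-binding protein), Arhgap15 (a Rac regulator), Gripap1, Cys1, Ncoa2 (a nuclear receptor coactivator), Tecr (an enzyme of fatty acid elongation), Lrwd1 and Phka2 were all highest in Control 4, at 254 to 707 counts. Arhgap15, for example, had 124, 95.8, 92.7 and 572. Mgmt (a DNA repair enzyme), Cplx2 (complexin), Nefm (a neurofilament subunit) and Aplp2 (a relative of App) were highest in Control 1. Nefm had 641, 152, 126 and 143, and Aplp2 528, 154, 128 and 125. Gabpb2 was highest in Control 3, with 762 counts against 99.3 to 208. Of all 172 symbols with a CV over 50%, Control 4 was the highest library in 77, Control 1 in 40, Control 3 in 38 and Control 2 in 17.

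The most even symbols were few and mostly of moderate abundance. Morn4 had 157, 156, 159 and 163 counts, Mfap1a (a spliceosome component) 124, 127, 124 and 129, and Hdgf (a growth factor) 412, 402, 406 and 391. Ubr4 (a ubiquitin ligase), Pcdh9, Il1rapl1, Wwp2, C1ql1, Robo2 and Slit2 (the ligand of Robo receptors) completed the 10 lowest, with CVs from 2.21% to 2.82%. The CV of each of the 10 was below the value from counting error alone, which lay between 3.49% and 9.95% for them. An even total did not require even sites. The highest site of Hdgf held 34.5% of its counts on average and 52.7% in Control 1, and in Mfap1a and Slit2 the highest site was not the same in every library.

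A small number of sites carried the symbols of microRNA loci. Such a site counts polyadenylated RNA that ends at the locus and not the mature microRNA, which has no poly(A) tail. There were 33 such sites under 27 symbols, of which 7 sites had a mean of at least 10. Sequences of 24 of the 27 symbols were found in RefSeq (build GRCr8). The mature forms of 4 loci, chosen after their values were seen because they were among the highest or are known from brain, are shown with the seed (bases 2 to 8) in capitals.
rno-miR-219a-5p: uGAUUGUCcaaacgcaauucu
rno-miR-219a-2-3p: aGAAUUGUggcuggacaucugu
rno-miR-673-5p: cUCACAGCuccgguccuuggag
rno-miR-137-3p: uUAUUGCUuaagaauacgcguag
rno-miR-138-5p: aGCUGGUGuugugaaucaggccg
The 5 seeds differ from each other. The site of Mir219-2, whose products promote oligodendrocyte maturation, had 53.4, 47.9, 48.3 and 19.9 counts, and that of Mir673 had 41.7, 83.8, 46.3 and 5.96. Control 4 was the lowest for both. Mir137 and Mir138-1, both known for roles at synapses, had 21.9, 16.8, 8.73 and 27.8 counts and 13.9, 14.4, 11.4 and 27.8, Control 4 being the highest.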

How the data were processed

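The authors deposited 1 file per library with a gene symbol and a value per APA site. Per the study's methods, reads from an Ion Torrent sequencer were trimmed, mapped with TMAP to Rnor_6.0, clustered in windows of 24 bases and kept at 16 or more reads per site, and sites were classed with Cuffcompare. The deposited value is a signal, the reads at a site divided by a DESeq2 size factor of the library. It was checked that 100% of values were whole multiples of 1 read (within 0.001 reads), and that the lowest sum of reads per site over 8 libraries was 16. The site list therefore draws on all 8 libraries, and each library's precision is set by its reads.

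Sites of a symbol were summed per library and ranked by the mean of 4 libraries with Python 3.11.15 and pandas 2.3.3. The share of the highest site and the CV were computed for symbols with a mean of at least 100. The CV from counting error used the reads behind each total. Positions and classes came from the study's table of sites, whose first 1960 rows matched the files in symbol and all 4 control values. Scripts were tested on simulated data. No test was run, since there is 1 group. Members, gene lists and thresholds were chosen with earlier results of these data known. Named are the 25 highest symbols, the 15 highest sites, the 10 symbols with the most sites, the 15 with the highest and 10 with the lowest CV, the 10 with the lowest share (mean of at least 200), genes of a mean of at least 500 whose highest site differs, and leading members of each list; peptides beyond the first 5, Foxa1, Drd1, Ubb and the microRNA loci were added after their values were seen. Listed symbols without a value were not analysed here, and a few results under the rule are not reported here. Alternatives were other scalings, including TMM of edgeR 4.0.16, other minimum counts, pooled reads and leaving out each library.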

Additional observations from a re-analysis of the deposited data

Results flagged for a closer look

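A library was taken as far from the others when its gap to the nearest library, divided by the range of the 4, exceeded 0.829 (Dixon's 95% value). This held for 32 of 212 values examined (15.1%). Chance alone flags about 1 in 20 among independent, unselected values of equal spread. The values examined are not of that kind, so their share cannot be set against that rate. The most variable genes among them were chosen for their spread, Gapdh and Scd2 enter both as a total and as a site, and Control 4 had the fewest reads. In 17 the far library was Control 4 on the high side and in 2 Control 4 on the low side; Control 1 was far in 8, Control 3 in 4 and Control 2 in 1. The number in parentheses is the gap ratio.

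Most far values were totals raised in Control 4. Among the most variable genes these were Dhx57 (0.852), Cap1 (0.939), Arhgap15 (0.936), Gripap1 (0.914), Cys1 (0.839), Ncoa2 (0.863), Tecr (0.890) and Phka2 (0.916). Outside that class, Control 4 was far above the others for Ywhaz (0.831), Mapt (0.874, 3900 counts against 2689 to 2842), the cell adhesion gene Lsamp (0.899, 2105 against 1482 to 1545), the sodium channel Scn2a (0.863, 2345 against 1160 to 1323), Papola (0.896), Cpsf6 (0.848), Sim1 (0.855), the striatal regulator Rgs9 (0.850, 131 against 69.8 to 79.0) and the choroid plexus channel Kcnj13 (0.887, 11.9 against 6.58 to 7.18, a few reads). It was far below them for Scd2 (0.842) and for the main Scd2 site (0.829).

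Control 1 was far above the others for Gapdh (0.987), which has a single site, and for Mgmt (0.961), Nefm (0.949), Aplp2 (0.927) and Gas5 (0.906). It was also far above them at a site without a gene at chr2:548916-549091 on the plus strand (0.969), which had 15272 counts in Control 1 and 581, 111 and 310 in Controls 2 to 4 and ranked 25 among all sites on the strength of that library alone. The median share of the highest site was lowest in Control 1 (0.829). Control 3 was far above the others for Rn18s (0.868), Gabpb2 (0.837), the 14-3-3 gene Ywhag (0.848, 3538 against 2095 to 2314) and the sum of the synaptic vesicle genes (0.863), and Control 2 for Prlr (0.850). The causes were not tested.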

How the results depend on the processing

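The number of symbols holding 50% of counts was 571, and it was 800 without mitochondrial rows, 936 without the 10 highest symbols, 576 from pooled reads and 561 to 574 with 1 library left out. The percentage of symbols with 1 site, 39.1%, was 65.8% for sites with a mean of at least 10 and 45.6% for sites with a read in each library, and 39.05% to 39.20% with 1 library left out. The median share of the highest site, 78.4%, was 65.4% at a gene mean of at least 10 and 93.1% at 500, and 77.7% to 79.3% with 1 library left out. The percentage of genes with the same highest site, 81.5%, was 64.3% at a mean of at least 10 and 89.2% at 500, and 82.7% to 87.4% with 1 library left out, highest without Control 4. The median CV, 21.1%, was 27.9% at a mean of at least 10, 20.3% at 500, 21.2% to 21.4% under equal totals (with and without mitochondrial rows) and TMM, and 14.8% to 22.0% with 1 library left out, lowest without Control 4. The summed counts of all 34 gene lists moved by less than 1 SD under both equal-total scalings, and 42 of 50 CVs of named genes by less than the SD of their leave-one-out values. In an alternative chosen after seeing the data, leaving out the highest member gave 20153 for oligodendrocyte genes, 22270 for astrocyte genes, 17653 for pan-neuronal genes and 346 for striatal genes. No paired analysis was possible because a single group was described and no result comes from a test.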
